A study of Mus musculus with 4 samples.

Results

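The 10 genes described here encode enzymes and regulators that handle superoxide, peroxides, oxidized thiols and heme, and they were taken by symbol from the 31053 genes of the count tables. They are the superoxide dismutases Sod1 (cytosolic) and Sod2 (mitochondrial), catalase (Cat), the glutathione peroxidases Gpx1 and Gpx3, peroxiredoxin 1 (Prdx1), thioredoxin (Txn1) and its reductase Txnrd1, heme oxygenase 1 (Hmox1), and the thioredoxin-interacting protein Txnip. Each symbol named 1 row of the tables, so that all 10 members were measured. Superoxide dismutases turn superoxide into hydrogen peroxide, which catalase, glutathione peroxidases and peroxiredoxins then remove. Thioredoxin and its reductase return oxidized peroxiredoxins and other thiol proteins to their reduced form, and Txnip binds thioredoxin and holds back its activity. Pancreatic β-cells are known for low catalase, and Sod2 and Hmox1 are known targets of inflammatory and stress signaling.

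Islets of C57BL/6 mice (adult male C57BL6/J in the study's methods) were pooled and divided. They were either left untreated or exposed outside the animal for 6 h to IL-1β, to IFN-γ, or to both cytokines. The islets were then dispersed, and single cells were captured with a droplet kit that counts the 3′ ends of transcripts. No group carried a genetic change. Each of the 4 conditions gave 1 library, and differences between conditions therefore come without replicates and without a statistical test. The intervals below are 95% intervals that cover counting error only. They are exact Poisson intervals for levels, exact conditional intervals for ratios and exact binomial (Clopper-Pearson) intervals for shares of cells.

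The level of a gene is the sum of its unique molecular identifiers (UMIs) over the cells of a type, divided by all UMIs of those cells and scaled to 1000000 (CPM). Since 3′-end counting and priming differ between genes, levels are compared within a gene, across cell types and libraries. Of 12571 barcodes, 7471 had between 200 and 4000 detected genes with no more than 12% of UMIs from mitochondrial genes. There were 1521 such cells in the untreated library, 2018 under IL-1β, 2122 under IFN-γ and 1810 under both. Median UMIs per kept cell were 15454, 7462.5, 9615 and 11123.5 in that order, which makes the untreated cells the deepest. The upper gene limit removed 843 untreated barcodes but 146, 345 and 222 in the treated libraries. A total of 16 barcode sequences occurred in more than 1 library.

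Cells were called β-like, α-like, δ-like or PP-like from the share of their UMIs taken by insulin, glucagon, somatostatin or pancreatic polypeptide, and other types from marker genes. All 4 endocrine types were found in each library, as the islet label implies. There were 4868 β-like, 894 α-like, 429 δ-like, 174 PP-like, 138 macrophage-like, 129 endothelial-like, 67 ductal-like, 60 mesenchymal-like and 54 acinar-like cells. A further 514 cells had mixed or low hormone shares and 144 stayed unassigned, and these were left out. Of the β-like cells, 260 had an insulin share within 2 times the limit. These were 22 of 1179 in the untreated library, 113 of 1143 under IL-1β, 78 of 1271 under IFN-γ and 47 of 1275 under both.

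The scale matters for β-like cells. Hormone genes took 47.6% of their UMIs in the untreated library, 28.6% under IL-1β, 34.6% under IFN-γ and 38.0% under both. A lower hormone share lifts the CPM of every other gene, and the median ratio to untreated over all tested genes was 1.29 under IL-1β, 1.23 under IFN-γ and 1.03 under both. When the hormone genes were left out of the totals, these medians were 0.95, 0.99 and 0.87. Ratios on this second scale are therefore given for the members in β-like cells where a direction or a 2-fold call depends on them. A gene counted as tested when it had at least 100 UMIs over the pair of libraries, and 2-fold in either direction was used as the limit in place of a test.

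In β-like cells, IL-1β was accompanied by higher levels of 5 of the 10 members, Sod2, Gpx1, Hmox1, Txnrd1 and Cat, and by no lower one, at this limit. The same limit was passed by 20.4% of all 9893 genes tested, 1569 higher and 453 lower. With hormone genes left out of the totals, 3 members passed, Sod2, Gpx1 and Hmox1, beside 17.0% of all genes, 648 higher and 1036 lower. With both cytokines 5 members were higher, Sod2, Gpx1, Hmox1, Txn1 and Txnrd1, beside 19.9% of all genes, of which 1089 were higher and 912 lower. Leaving out the hormone genes kept Sod2 and Gpx1 alone past the limit, beside 22.2% of all genes, 826 higher and 1406 lower. No member passed with IFN-γ alone on either scale, where 4.37% of all genes passed on the first scale, 419 higher and 24 lower, and 3.19% on the second, 222 higher and 101 lower. The median ratio of the members was 2.20 under IL-1β, 1.19 under IFN-γ and 1.91 under both, and it was 1.62, 0.96 and 1.61 without the hormone genes. A further scale divided each library by the median of its gene ratios (median-of-ratios factors). On it 4 members passed with both cytokines, Sod2, Gpx1, Txn1 and Hmox1, beside 20.6% of all genes, 928 higher and 1148 lower.

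**Figure D1:**
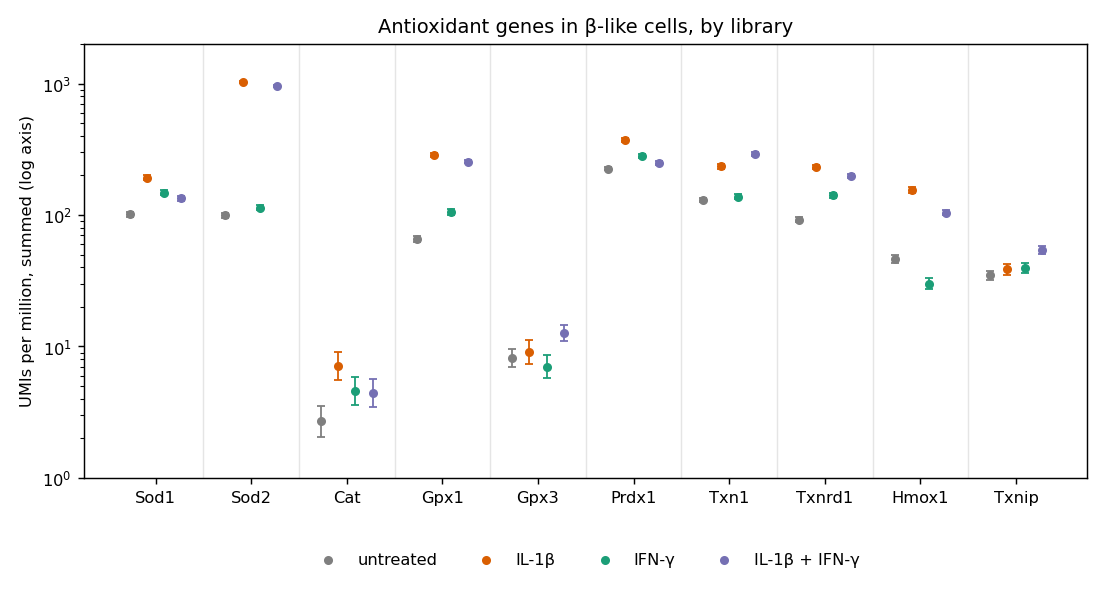
Level of each member in β-like cells in CPM (log axis), 1 point per library with its 95% Poisson interval. Sod2, Gpx1 and Hmox1 lie well above the untreated point in both libraries that received IL-1β, and Hmox1 lies below it with IFN-γ (30.0 against 46.4). Heights should be read within a gene and not between genes.

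Sod2, on chromosome 17 (13006846 to 13040063, plus strand, GRCm38), showed the largest ratio to untreated of the members in β-like cells, with IL-1β and with both cytokines. Its level in β-like cells was 99.9 CPM (95.6 to 104) in the untreated library, 1026 (1006 to 1046) under IL-1β, 114 (108 to 120) under IFN-γ and 956 (941 to 972) under both. The libraries thus fell into a low pair without IL-1β and a high pair with it. The ratio to untreated was 10.3 (9.79 to 10.8) with IL-1β and 9.57 (9.13 to 10.0) with both, or 7.54 and 8.09 without the hormone genes. With IFN-γ alone it was 1.14 (1.07 to 1.22), a direction that turned to 0.91 on the second scale. Against IL-1β alone, the combination gave 0.93 (0.91 to 0.96) and, without hormone genes, 1.07.

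The higher Sod2 level was spread over most β-like cells. A Sod2 UMI was found in 76.1% of them in the untreated library, 90.2% under IL-1β, 65.8% under IFN-γ and 95.4% under both. After each cell was thinned to 4000 UMIs, which equalizes total UMIs but leaves more UMIs for non-hormone genes where the hormone share is low, the shares were 32.9%, 88.9%, 34.5% and 90.4%. The median β-like cell held 0.84 Sod2 UMIs per 10000 without treatment, 8.87 under IL-1β, 0.91 under IFN-γ and 8.62 under both. The tenth percentile was 0.87 with IL-1β and 1.90 with both, and it was 0 in the libraries without IL-1β. The 10% of cells with the most Sod2 held 26.1% of its UMIs with IL-1β and 24.1% with both.

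Gpx1, a selenium-dependent enzyme that reduces hydrogen peroxide with glutathione, lies on chromosome 9 (108338903 to 108340343, plus strand). It stood at 66.0 CPM in untreated β-like cells, 285 under IL-1β, 105 under IFN-γ and 255 under both. On the first scale the order of the libraries was that of Sod2, with IL-1β alone highest. Without hormone genes, IFN-γ stood above untreated for Gpx1 but below it for Sod2. Between both and IL-1β alone the ratio was 0.89, a direction that turned to 1.03 without hormone genes. Ratios to untreated were 4.32 (4.04 to 4.61), 1.60 (1.48 to 1.72) and 3.86 (3.63 to 4.11), and 3.17, 1.28 and 3.26 without hormone genes. After thinning, Gpx1 UMIs were found in 22.0%, 60.2%, 34.2% and 57.8% of β-like cells.

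Among members with at least 100 UMIs, Sod2 and Gpx1 were those past 2-fold in β-like, α-like and δ-like cells alike, and their promoters are shown with that of Prdx1, which stayed within 2-fold in each of these types. The windows run from 250 bases before to 50 bases after a RefSeq start site (RefSeq on GRCm38.p6). A window was found for 9 of the 10 members, and not for Hmox1. The motifs searched on both strands were the 10-base κB consensus of NF-κB factors, the core of the antioxidant response element (TGACNNNGC) bound by NRF2, and the element TTCNNNGAA bound by STAT factors. Matches are written as read on the plus strand, and a match to the reverse strand is the complement. In capitals are the κB match and the TTCNNNGAA match of Sod2, the κB match of Gpx1, and the κB match and the antioxidant core of Prdx1. Sod2 lies at chr17:13007589-13007888 (plus strand), which is inside the longer GENCODE gene, Gpx1 at chr9:108338830-108339129 (plus strand), and Prdx1 at chr4:116685349-116685648 (plus strand).
Sod2: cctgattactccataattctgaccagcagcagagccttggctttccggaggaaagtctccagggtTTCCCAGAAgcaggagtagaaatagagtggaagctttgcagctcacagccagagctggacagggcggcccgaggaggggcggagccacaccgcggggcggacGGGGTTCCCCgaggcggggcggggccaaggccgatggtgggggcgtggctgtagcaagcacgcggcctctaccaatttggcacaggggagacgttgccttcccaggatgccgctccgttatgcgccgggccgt
Gpx1: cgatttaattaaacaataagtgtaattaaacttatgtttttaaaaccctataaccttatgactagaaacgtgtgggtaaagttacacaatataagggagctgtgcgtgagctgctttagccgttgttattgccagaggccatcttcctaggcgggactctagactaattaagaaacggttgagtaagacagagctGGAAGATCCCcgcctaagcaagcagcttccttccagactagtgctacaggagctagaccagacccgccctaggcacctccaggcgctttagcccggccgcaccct
Prdx1: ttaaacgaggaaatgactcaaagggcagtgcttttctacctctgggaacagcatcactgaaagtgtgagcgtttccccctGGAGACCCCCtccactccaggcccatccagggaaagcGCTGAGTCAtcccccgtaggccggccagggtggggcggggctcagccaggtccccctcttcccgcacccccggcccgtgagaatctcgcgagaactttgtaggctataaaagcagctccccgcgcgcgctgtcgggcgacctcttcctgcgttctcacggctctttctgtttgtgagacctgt

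The κB match of Sod2 (GGGGTTCCCC) began 83 bases before the start site, and that of Gpx1 (GGAAGATCCC) 55 bases before it. Cat, Gpx3 and Prdx1 held κB matches too, while the windows of Sod1, Txn1, Txnrd1 and Txnip held none. A link between the motif and the levels was not tested. The κB consensus occurred in 8.46% of the 32851 RefSeq promoter windows of this length, the antioxidant core in 12.4%, and TTCNNNGAA in 8.30%. The antioxidant core was found in Sod1, Prdx1 and 1 of the 3 Txnrd1 windows. The element TTCNNNGAA was found in Txnrd1 as well as in Sod2. These matches describe the letters and are not evidence of binding.

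Hmox1, which breaks down heme (chromosome 8, 75093621 to 75100589, plus strand), was higher with IL-1β and lower with IFN-γ, on both scales. Its level in β-like cells was 46.4 CPM (43.4 to 49.4) without treatment, 154 under IL-1β, 30.0 under IFN-γ and 104 under both. The ratio to untreated was 3.32 (3.06 to 3.61) under IL-1β, 0.65 (0.58 to 0.73) under IFN-γ and 2.25 (2.08 to 2.44) under both. Without hormone genes these ratios were 2.44, 0.52 and 1.90. The combination stood below IL-1β alone, at a ratio of 0.68 (0.63 to 0.73), or 0.78 without hormone genes. Hmox1 UMIs were unevenly spread, and the 10% of cells with the most Hmox1 held 85.8% of them in the untreated library, against 59.1% under IL-1β, 66.7% under IFN-γ and 58.9% under both.

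Macrophage-like cells had far more Hmox1 than β-like cells, so macrophage RNA in β-like droplets bears on these values. The summed level of 10 macrophage markers in β-like cells was 88.9 CPM without treatment, 51.7 under IL-1β, 48.2 under IFN-γ and 148 under both, which is 0.38%, 0.24%, 0.19% and 0.49% of their level in macrophage-like cells. At least 1 UMI was found for 10, 6, 9 and 9 of the 10 markers. C1qa alone supplied 70.9, 36.5, 40.5 and 136 CPM of these sums. With IL-1β, Adgre1, C1qc and Csf1r were among the markers at 0 UMIs in β-like cells, as was Adgre1 with IFN-γ and with both. At these percentages macrophage RNA would bring 10.1, 7.46, 3.0 and 3.64 CPM of Hmox1 into β-like cells. Without C1qa, a choice made after its values were seen, the amounts were 2.42, 2.47, 0.57 and 0.36 CPM. The part of macrophage RNA in the Hmox1 levels of β-like cells was not tested further.

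The thioredoxin arm was led by Txn1 and Txnrd1. Txn1 (chromosome 4, 57943373 to 57956411, minus strand) stood at 130 CPM in untreated β-like cells, 234 under IL-1β, 138 under IFN-γ and 291 under both. The combination stood above IL-1β alone, at a ratio of 1.24 (1.18 to 1.31), or 1.43 without hormone genes. With IFN-γ alone the ratio to untreated was 1.06, a direction that turned to 0.85 without hormone genes. The ratio of Txn1 to untreated was 2.24 (2.14 to 2.36) with both cytokines, and 1.90 without hormone genes. Txnrd1 (chromosome 10, 82833951 to 82897712, plus strand), which returns thioredoxin to its reduced form with NADPH, measured 92.0 CPM untreated, 232 under IL-1β, 142 under IFN-γ and 199.7 under both. Its ratio was 2.52 (2.37 to 2.68) with IL-1β and 2.17 (2.05 to 2.30) with both, but 1.85 and 1.84 without hormone genes.

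Sod1, Prdx1 and Gpx3 stayed within 2-fold of untreated in β-like cells in each library. Sod1 (chromosome 16, 90220754 to 90226329, plus strand) was at 101 CPM untreated, 192 under IL-1β, 147 under IFN-γ and 135 under both, with ratios of 1.89, 1.45 and 1.33, or 1.39, 1.16 and 1.12 without hormone genes. Prdx1 (chromosome 4, 116685544 to 116700822, plus strand) was at 225, 373, 281 and 248 CPM, and its ratios without hormone genes were 1.21, 1.0 and 0.93. Gpx3 (chromosome 11, 54902453 to 54910377, plus strand), the secreted plasma form of glutathione peroxidase, was low in β-like cells, at 8.17, 9.11, 7.03 and 12.7 CPM. Its ratio with IL-1β was 1.11, a direction that turned to 0.82 without hormone genes. Cat (chromosome 2, 103453849 to 103485160, minus strand) was lower still, at 2.71 CPM untreated (54 UMIs in 1179 cells), 7.16 under IL-1β, 4.61 under IFN-γ and 4.46 under both. Its ratio with IL-1β was 2.65 (1.83 to 3.85), and 1.94 without hormone genes.

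Comparisons of the combination with each single cytokine used the same β-like cells. No member differed 2-fold between both cytokines and IL-1β alone, where 7.64% of all genes did, 227 higher and 495 lower, or 317 and 209 without hormone genes. Against IFN-γ alone, 4 members were past 2-fold, Sod2 (8.39), Hmox1 (3.47), Gpx1 (2.41) and Txn1 (2.11), where 17.2% of all genes passed. All 4 were higher with both cytokines, while 540 of the genes past the limit were higher and 1159 lower, or 605 and 954 without hormone genes. These comparisons share libraries with those above.

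**Figure D2:**
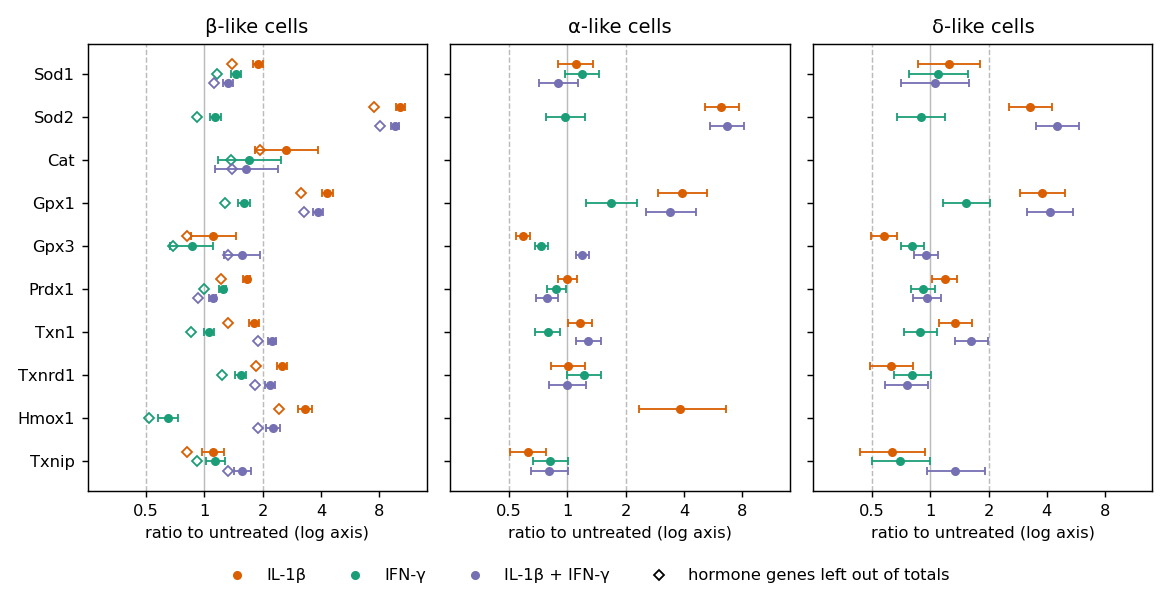
Ratio of each member to the untreated library (log axis) in β-like, α-like and δ-like cells, with 95% conditional intervals, for pairs with at least 100 UMIs. Open diamonds in the β-like panel leave the hormone genes out of the totals, and dashed lines mark 2-fold. Sod2 and Gpx1 lie right of the 2-fold line in all 3 types with IL-1β and with both cytokines.

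In α-like cells, 3 of the 9 members with enough UMIs were past 2-fold with IL-1β, Sod2, Gpx1 and Hmox1, beside 12.3% of all genes. With both cytokines these were Sod2 and Gpx1 of 8 members, beside 17.6% of genes, and with IFN-γ none of 8, beside 4.37%, 179 higher and 18 lower, or 140 and 35 without hormone genes. Sod2 was at 117 CPM in untreated α-like cells, 728 under IL-1β, 114 under IFN-γ and 777 under both. The ratios were 6.22 (5.11 to 7.64), 0.97 (0.77 to 1.23) and 6.64 (5.44 to 8.18). Gpx1 was at 60.7, 236, 102 and 205 CPM, with ratios of 3.89 (2.94 to 5.23), 1.68 (1.25 to 2.29) and 3.39 (2.53 to 4.6). Hmox1 was at 19.9 CPM untreated (18 UMIs), 75.9 with IL-1β, 7.13 with IFN-γ (17 UMIs) and 52.4 with both, so that the order of the libraries was that of β-like cells. It met the minimum of 100 UMIs with IL-1β through that library alone, and missed it with both cytokines at 79 and 18 UMIs, where its ratio was 2.64 (1.57 to 4.68), so the minimum decided whether it was counted.

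In δ-like cells, Sod2 and Gpx1 were the 2 of 8 members past 2-fold with IL-1β and again with both cytokines, beside 12.6% and 23.3% of all genes, and none of 8 was with IFN-γ, beside 4.81%. Sod2 was at 174 CPM untreated, 569 under IL-1β, 156 under IFN-γ and 784 under both, at ratios of 3.27 (2.54 to 4.26), 0.90 (0.68 to 1.20) and 4.50 (3.50 to 5.85). Gpx1 was at 159.7 CPM without treatment, 604 under IL-1β, 243 under IFN-γ and 660.2 under both. Hmox1, with under 100 UMIs in each pair, was at 12.1 CPM untreated (5 UMIs), 56.4 under IL-1β (42), 5.38 under IFN-γ (6) and 37.1 under both (21), at ratios of 4.66 (1.85 to 15.1), 0.44 (0.11 to 1.84) and 3.06 (1.12 to 10.4). In δ-like cells the combination exceeded IL-1β alone for Sod2 by 1.38 (1.20 to 1.58), where the intervals of the levels did not overlap. The interval of the Sod2 ratio with IL-1β in δ-like cells lay below that in α-like cells, which lay below that in β-like cells. Without hormone genes the 3 ratios were 3.12, 5.85 and 7.54. Endothelial markers were also found in δ-like cells under IL-1β, with Flt1 at 37 UMIs and Plvap at 27, against 0 untreated and 0 with both. Pecam1 was at 10 UMIs under IL-1β, against 1 untreated and 3 with both. The part of endothelial RNA in the δ-like values was not tested.

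PP-like cells followed the same course, with Sod2 at 98.5, 691, 104 and 824 CPM and Gpx1 at 57.5, 328, 100.1 and 258 CPM in the order untreated, IL-1β, IFN-γ and both. These rest on 21 to 402 UMIs per library.

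**Figure D3:**
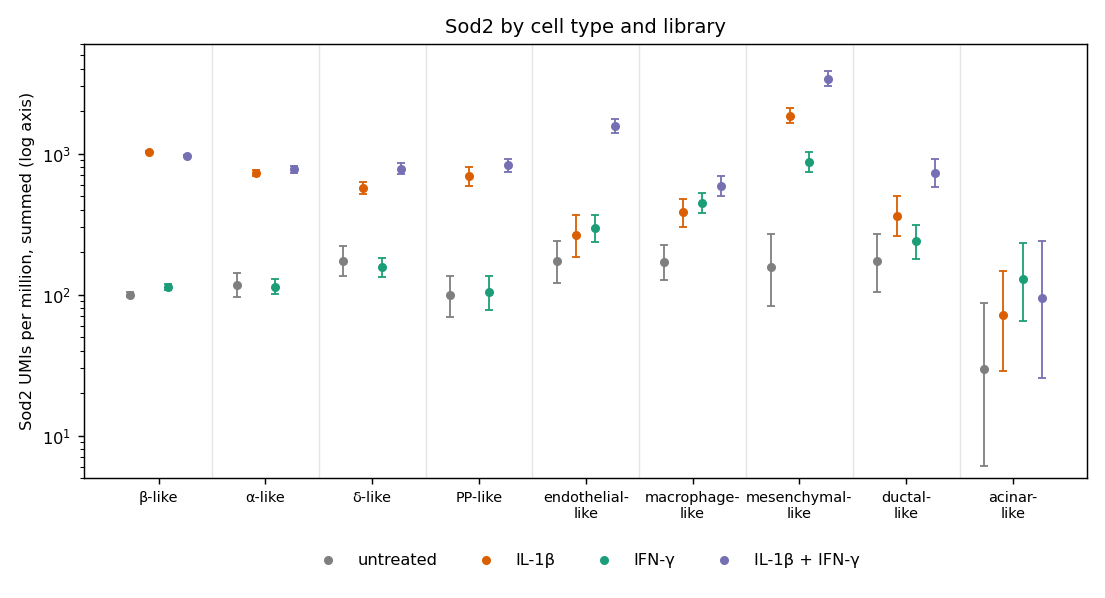
Sod2 level in CPM (log axis) in 9 cell types, 1 point per library with its 95% Poisson interval. The endocrine types show a low pair of libraries and a high pair with IL-1β, while mesenchymal-like cells are high with each cytokine and endothelial-like cells stand out with both (1574 against 172 untreated).

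Outside the endocrine cells, the pattern of Sod2 varied by type. Without treatment its level lay between 157 and 174 CPM in δ-like, ductal-like, endothelial-like, macrophage-like and mesenchymal-like cells, where neighboring intervals overlapped. In mesenchymal-like cells it was 157 CPM untreated (13 UMIs), 1858 under IL-1β, 874 under IFN-γ and 3411 under both. These were the highest Sod2 levels of any type in each treated library, and their ratios to untreated were 11.8 (6.81 to 22.5), 5.57 (3.16 to 10.7) and 21.8 (12.5 to 41.4). Mesenchymal-like cells numbered only 10, 20, 20 and 10 in the order untreated, IL-1β, IFN-γ and both, and endothelial-like cells 29, 33, 45 and 22. The intervals do not cover the spread between cells. In endothelial-like cells Sod2 was 172, 263, 296 and 1574 CPM in the same order. The ratio was 1.53 (0.93 to 2.51) under IL-1β, 1.72 (1.15 to 2.63) under IFN-γ and 9.14 (6.44 to 13.4) under both.

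In macrophage-like cells Sod2 was 170 CPM untreated, 382 under IL-1β, 448 under IFN-γ and 593 under both, at ratios of 2.25 (1.56 to 3.26), 2.63 (1.90 to 3.70) and 3.48 (2.52 to 4.88). Ductal-like cells held 173, 364, 239 and 732 CPM. Acinar-like cells held 3 to 11 Sod2 UMIs per library, too few to order. Insulin UMIs were found in these droplets too. Macrophage-like cells held 4906 CPM of insulin in the untreated library, 961 in that under IL-1β, 2538 in that under IFN-γ and 1215 in that under both. The source of these UMIs was not tested. At these amounts β-cell RNA would bring at most 4.45 CPM of Sod2 into macrophage-like cells and 3.46 into mesenchymal-like cells. The part of β-cell RNA in the Sod2 levels was not tested further.

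The members differed in where they were found. Gpx3 was found chiefly in α-like, δ-like, PP-like and ductal-like cells, at untreated levels of 1197, 789, 249 and 474 CPM, whose intervals did not overlap. Without hormone genes PP-like cells (461, 371 to 566) and ductal-like cells (482, 360 to 632) could not be told apart, while α-like and δ-like cells stayed above both. Beside these, β-like cells had 8.17 CPM, and without hormone genes 15.6 against 1570.2 in α-like cells. Neither macrophage-like nor endothelial-like cells had more than 1 Gpx3 UMI in any library, and 0 UMIs in untreated macrophage-like cells set an upper limit of 10.2 CPM. A Gpx3 UMI was seen in all 89 untreated α-like cells, and in 7.9% of untreated β-like cells. The Gcg level in β-like cells was 0.06% to 0.11% of that in α-like cells, which would carry 0.75 to 0.95 CPM of Gpx3, and Sst would carry 0.39 to 1.91 CPM.

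In the non-β endocrine cells Gpx3 was lower with IL-1β than without treatment. In α-like cells it was 1197 CPM untreated, 708 under IL-1β, 880 under IFN-γ and 1433 under both. In δ-like cells it was 789, 456, 639 and 750 CPM, with the lowest value again in the IL-1β library. The ratio with IL-1β was 0.59 (0.55 to 0.64) in α-like and 0.58 (0.50 to 0.68) in δ-like cells, short of 2-fold. The combination stood above IL-1β alone by 2.02 (1.90 to 2.16) and 1.64 (1.42 to 1.90). Ductal-like cells had 474 CPM untreated, 159 under IL-1β, 93.8 under IFN-γ and 501 under both, from 17 to 52 UMIs a library. Hormone genes moved with this order, at 1.74%, 0.88%, 0.23% and 3.11% of ductal-like UMIs. Among them, Pyy was at 7021, 364, 81.0 and 9766 CPM and Iapp at 2914, 3331, 367 and 9862 CPM. At the percentages of Gcg and of Sst found in these cells, α-like and δ-like RNA would carry 2.25, 6.29, 0.80 and 8.48 CPM and 13.3, 10.0, 0.17 and 43.9 CPM of Gpx3, and the part of other endocrine RNA or cells in the ductal-like values was not tested.

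**Figure D4:**
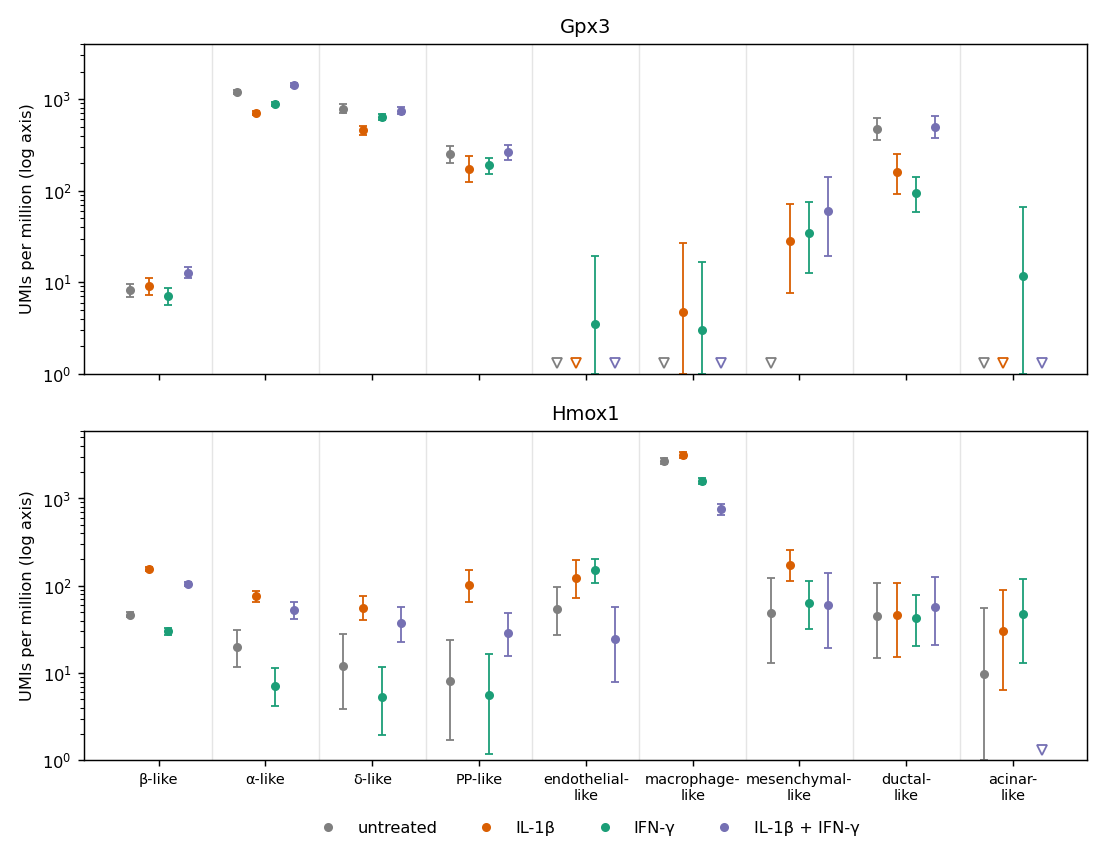
Levels of Gpx3 and Hmox1 in CPM (log axis) by cell type and library, with 95% Poisson intervals cut at the axis and open triangles for 0 UMIs. Gpx3 is high in α-like, δ-like, PP-like and ductal-like cells, and Hmox1 is highest in macrophage-like cells, where it is lowest with both cytokines (750.0 against 2695).

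Hmox1 was highest in macrophage-like cells in every library, at 2695 CPM untreated, 3117 under IL-1β, 1592 under IFN-γ and 750.0 under both. The ratios to untreated were 1.16 (1.04 to 1.28), 0.59 (0.53 to 0.66) and 0.28 (0.24 to 0.33). The order of the cytokine libraries thus differed from that in β-like cells, where both cytokines left Hmox1 above the untreated level, and the difference between the types was not tested. Prdx1, too, was highest in macrophage-like cells, at 7302, 5374, 6413 and 6799 CPM, against 225 CPM in untreated β-like cells (430 without hormone genes). Cat was highest in macrophage-like cells without treatment, at 225 CPM (66 UMIs), and stood at 71.7 under IL-1β, 60.1 under IFN-γ and 41.3 under both. Its ratios of 0.32 (0.17 to 0.56), 0.27 (0.15 to 0.45) and 0.18 (0.09 to 0.35) rest on 11 to 20 UMIs in the treated libraries, and each pair of libraries fell short of 100 UMIs.

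β-like cells were at the lower end for several members. For Cat, the β-like level of 2.71 CPM could not be told from that of α-like cells, which had 0 UMIs in 89 untreated cells and an upper limit of 3.31 CPM, and it was below that of δ-like cells at 24.2 CPM (10 UMIs). For Txn1, the untreated β-like level of 130 CPM was the lowest of the 9 types, and mesenchymal-like cells had 1713 CPM. Without hormone genes it was 248, still below 350 in PP-like cells. For Txnip it was 34.8 CPM, against 159 in α-like, 131 in δ-like, 129 in PP-like and 410 in ductal-like cells. Without the hormone genes, Txnip was 66.4 CPM in β-like, 208 in α-like, 165 in δ-like and 238 in PP-like cells, so that β-like cells stayed lowest of these 4 types. The PP-like value, from 47 UMIs, stood below α-like cells on the first scale and above them on the second. For Sod1 the order did not hold, with 101 CPM in β-like and 141 in α-like cells but 194 and 185 without hormone genes.

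Txnip (chromosome 3, 96557957 to 96561883, plus strand) is known to follow glucose through the carbohydrate response factors Mlxipl and Mlxip, which bind paired E-boxes. The motif searched was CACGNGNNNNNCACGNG, on both strands, and it is shown in capitals in the RefSeq window of Txnip at chr3:96557707-96558006 (plus strand).
Txnip: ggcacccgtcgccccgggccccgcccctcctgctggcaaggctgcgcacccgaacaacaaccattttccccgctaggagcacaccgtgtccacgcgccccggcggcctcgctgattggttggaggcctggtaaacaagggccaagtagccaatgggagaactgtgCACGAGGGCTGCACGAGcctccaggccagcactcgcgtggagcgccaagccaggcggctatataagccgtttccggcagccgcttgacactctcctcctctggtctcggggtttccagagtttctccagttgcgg

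The pair began 85 bases before the start site and was present in 16 of the 32851 windows, or 0.0487%, with Txnip as the one member among them. In β-like cells Txnip was at 34.8 CPM untreated, 38.7 under IL-1β, 39.7 under IFN-γ and 54.4 under both. The ratio with both cytokines was 1.57 (1.41 to 1.73), or 1.32 without hormone genes. With IL-1β it was 1.11 (0.98 to 1.26), or 0.82 without hormone genes, and with IFN-γ it was 1.14, or 0.91, so that both directions depended on the scale. In α-like and δ-like cells Txnip was lower with IL-1β, at ratios of 0.62 (0.51 to 0.78) and 0.64 (0.44 to 0.94). Endothelial-like cells had 98.4, 293, 393 and 205 CPM, at a ratio of 4.0 (2.47 to 6.79) with IFN-γ.

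Per UMI, Txnip was higher in β-like cells with high Hspa1a, an inducible heat-shock chaperone. Cells with at least 10 Hspa1a UMIs per 10000 numbered 20 in the untreated library, 101 under IL-1β, 79 under IFN-γ and 84 under both. In these cells Txnip was at 120.0 CPM, 211, 152 and 127, and in the other β-like cells at 33.8, 25.8, 33.7 and 49.7. The first group held 28 of the 694 Txnip UMIs untreated, 143 of 378 under IL-1β, 109 of 559 under IFN-γ and 121 of 854 under both, so that most lay in the other cells. The ratio between the groups was 3.56 (2.34 to 5.19) untreated, 8.15 (6.57 to 10.1) under IL-1β, 4.51 (3.63 to 5.58) under IFN-γ and 2.56 (2.10 to 3.11) under both. Without the Hspa1a-high cells, the ratio of Txnip with IL-1β to untreated was 0.77. The Hspa1a-high cells were shallower in 3 libraries, at median depths of 12594 against 17263 UMIs untreated, 6408 against 8512 with IL-1β and 8824 against 11191.5 with IFN-γ, and nearly as deep with both cytokines, at 11836.5 against 12227. The part of depth in this difference was not tested.

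**Figure D5:**
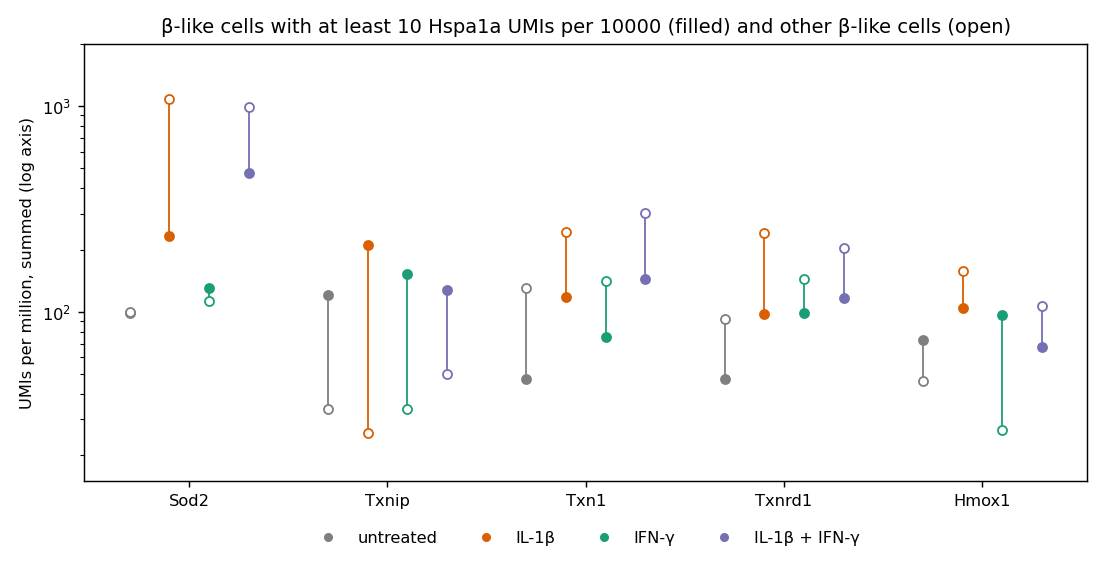
Levels of 5 members in CPM (log axis) in β-like cells with at least 10 Hspa1a UMIs per 10000 (filled) and in the other β-like cells (open), joined within each library. Txnip is higher in the Hspa1a-high cells of all 4 libraries, Txn1 and Txnrd1 are lower, and Sod2 is lower in the 2 libraries that received IL-1β.

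Sod2 went the other way in the cells with high Hspa1a. With IL-1β it was at 234 CPM in them and 1085 in the others, a ratio of 0.22 (0.18 to 0.25), and with both cytokines at 472 and 988, a ratio of 0.48 (0.43 to 0.52). In the untreated library the values were 98.6 and 99.9 CPM, and with IFN-γ 130 and 113. Txn1 was lower in Hspa1a-high cells in all 4 libraries, with ratios of 0.36 to 0.53, and Txnrd1 was too, with ratios of 0.40 to 0.69. Hmox1 was higher in them with IFN-γ, at 96.2 against 26.5 CPM, and lower with IL-1β, at 105 against 158 CPM, and with both, at 67.4 against 107 CPM. Untreated it was at 72.9 and 46.0 CPM, a ratio whose interval (0.92 to 2.55) spanned 1. Gpx3, which is far more abundant in the other endocrine types, was also higher in them untreated (6 UMIs), at a ratio of 3.23 (1.17 to 7.19), and with both cytokines (36 UMIs), at 3.41 (2.31 to 4.91), with intervals spanning 1 in the single-cytokine libraries. Gpx1 was higher in them untreated, at 1.90 (1.27 to 2.75), and lower with IL-1β, at 0.62 (0.51 to 0.74). When the cells with high Hspa1a were left out, the Sod2 ratios to untreated were 10.9 with IL-1β and 9.88 with both. In α-like cells with IL-1β, 20 cells with high Hspa1a had 303 CPM of Txnip against 86.0 in the others, and with both cytokines 52 such cells had 144 against 122, a ratio whose interval (0.87 to 1.60) spanned 1. In δ-like cells with both cytokines, 32 such cells had 287 CPM against 120.0 in the others, a ratio of 2.39 (1.58 to 3.63).

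β-like cells were also divided by Nos2, the inducible nitric oxide synthase, into those with a UMI and those without. With IL-1β, 333 cells had one and 810 did not, at median depths of 9236 and 7916.5 UMIs. With both, the numbers were 908 and 367, at 12822 and 10565 UMIs, so that the cells with a Nos2 UMI were deeper. Sod2 was at 1231 CPM with and 927 without Nos2 under IL-1β, and 1066 and 623 with both cytokines, at ratios of 1.33 (1.27 to 1.38) and 1.71 (1.64 to 1.79). Txn1 was at 317 and 213 CPM with both cytokines, a ratio of 1.49 (1.38 to 1.61), and at 248 and 227 CPM with IL-1β, a ratio of 1.09 whose interval (0.999 to 1.19) spanned 1. Hmox1 was at 104 and 105 CPM with both and at 158 and 152 with IL-1β. Gpx1 (1.26 and 1.14) and Txnrd1 (1.21 and 1.24) were higher with a Nos2 UMI under IL-1β and under both. Txnip was lower with a Nos2 UMI under IL-1β, at a ratio of 0.54 (0.41 to 0.69), and Sod1 under both, at 0.80 (0.73 to 0.88). The intervals spanned 1 for Txnip under both and for Sod1 under IL-1β. Sod2 in β-like cells without a Nos2 UMI was still far above the 99.9 CPM of untreated cells.

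Of 47 other antioxidant genes listed, 40 had enough UMIs in β-like cells with IL-1β, and 8 were higher and 2 lower by 2-fold. This count of 10 in 40 stands beside the 20.4% of all genes. Without hormone genes the same 40 gave 7 higher and 8 lower, beside 17.0%. On the first scale their median log2 ratio was 0.21, below that of all tested genes at 0.37. Without hormone genes these medians were -0.24 and -0.08, and the medians below are again on the first scale. With IFN-γ none of 39 passed (median 0.15 against 0.30), beside 4.37% of all genes. With both cytokines 7 were higher and 2 lower of 40 (median 0.06 against 0.04), beside 19.9% of all genes. Without hormone genes the counts with both were 4 and 3, beside 22.2% of all genes.

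In the group of glutathione synthesis, recycling and transferases, 3 of 8 genes were higher with IL-1β, where 1569 of all 9893 genes were. Without hormone genes the group had 3 higher and 2 lower, the latter being the transferases Gstm1 (0.42) and Mgst3 (0.46), where 648 of all 9893 genes were higher and 1036 lower. Slc7a11, the cystine importer, was at 1.85 CPM untreated, 45.2 under IL-1β, 3.76 under IFN-γ and 16.8 under both, with a ratio of 24.4 (17.4 to 35.1) with IL-1β that was the largest of the listed genes in β-like cells. With 37 UMIs untreated it met the minimum of 100 through the IL-1β library (442 UMIs) and that with both cytokines (263), and missed it with IFN-γ (53), so it was counted where it was high. The combination stood below IL-1β alone, at 0.37 (0.32 to 0.43). Glutathione reductase, Gsr, was at 46.0, 149, 56.5 and 99.9 CPM, with a ratio of 3.24 (2.98 to 3.52) with IL-1β and 2.17 with both, or 1.84 without hormone genes. The transferase Gsto1 had a ratio of 3.06 (2.47 to 3.81). In cells with high Hspa1a under IL-1β, Slc7a11 was at 4.42 CPM (3 UMIs) against 48.3 in the others.

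Among NRF2 and its known targets, 3 of 8 genes were higher with IL-1β and 3 with both cytokines, where 1569 of 9893 and 1089 of 10074 of all genes were. Without hormone genes 2 remained in each comparison, Sqstm1 and Me1, where 648 of 9893 and 826 of 10074 of all genes were higher. Sqstm1, the autophagy receptor p62 that also binds Keap1, was at 87.9 CPM untreated, 456 under IL-1β, 142 under IFN-γ and 502 under both, with ratios of 5.19 (4.91 to 5.48) with IL-1β and 5.71 (5.42 to 6.02) with both. The NADPH source Me1 had a ratio of 4.20 (3.63 to 4.87) with IL-1β. Nfe2l2, which encodes NRF2 itself, had 2.35 (2.07 to 2.68), or 1.73 without hormone genes, and Pgd had 2.02 with both, or 1.70. Sqstm1 was also past 2-fold in α-like cells, at 2.63 with IL-1β and 4.20 with both, and in δ-like cells at 2.26 and 3.11. Other listed genes were lower in these types. With IL-1β they were Gpx2, a glutathione peroxidase, in α-like cells (67.3 CPM untreated and 20.4, a ratio of 0.30, 0.20 to 0.45), and in δ-like cells the peroxidases Gpx4 (0.44, 0.35 to 0.56) and Prdx6 (0.48, 0.32 to 0.71). With IFN-γ they were Gstm1 (0.44) and Ftl1 (0.499) in δ-like cells. In all, 3 listed genes were higher and 1 lower of 24 in α-like cells with IL-1β, and 1 higher and 2 lower of 12 in δ-like cells, beside 12.3% and 12.6% of all genes. With IFN-γ there were none of 24 and 0 higher and 2 lower of 17, beside 4.37% and 4.81%. With both cytokines there were 2 higher of 17 and 2 higher of 11, beside 17.6% and 23.3%. Arrdc4 and Arrdc3 in α-like cells (26 and 16 UMIs untreated) and Arrdc4 in δ-like cells (3 UMIs) met the minimum only where the cytokine library was high, so these counts include genes that had to differ to be counted. Sqstm1, the other listed gene that was higher in each, met it in every comparison.

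Txnip's relatives and the glucose-sensing factors diverged. Arrdc4, an arrestin-domain relative, was at 4.01 CPM untreated, 38.5 under IL-1β, 6.89 under IFN-γ and 62.0 under both, a ratio of 15.5 (12.3 to 19.7) with both, and it was past 2-fold in α-like cells too, at 2.98 with IL-1β and 8.36 with both. In δ-like cells it was at 7.26 CPM untreated (3 UMIs) and 254 with both (144 UMIs), a ratio of 35.0 (11.7 to 172). Arrdc3 had 2.85 (2.38 to 3.42) with IL-1β in β-like cells and 2.82 (1.67 to 5.11) in α-like cells. Mlxipl, which encodes the carbohydrate response factor ChREBP, was lower, at 144 CPM untreated, 27.2 under IL-1β, 97.8 under IFN-γ and 37.9 under both, a ratio of 0.19 (0.17 to 0.22) with IL-1β. Its relative Mlxip had 2.01 (1.74 to 2.32) with both, or 1.70 without hormone genes.

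In the remaining groups few genes passed, where 20.4% of all genes did under IL-1β, 4.37% under IFN-γ and 19.9% under both. Of heme breakdown and iron storage, Blvrb, a biliverdin reductase, was lower with IL-1β, at 9.22 CPM untreated and 3.79, a ratio of 0.41 (0.28 to 0.59), and the other 4 genes tested stayed within 2-fold. Without hormone genes 3 of these, Hmox2 (0.47), Blvra (0.44) and the ferritin light chain Ftl1 (0.48), were past it with IL-1β as well, all lower, and Blvra (0.43) was with both. On that scale 17.0% of all genes passed with IL-1β, 1036 of 9893 being lower, and 22.2% with both, 1406 of 10074 being lower. Of other thioredoxins, reductases and glutaredoxins, Glrx5 was lower with both cytokines, at 159 and 74.4 CPM, a ratio of 0.47 (0.44 to 0.50), and the other 5 tested stayed within it. Without hormone genes, Glrx5 (0.48) was past it with IL-1β too. None of the 6 other peroxiredoxins and sulfiredoxin, of the 2 other glutathione peroxidases tested, or of the other superoxide dismutases and copper chaperone, of which 1 was tested, passed in β-like cells in any treated library against untreated, on either scale.

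The genes whose pattern over the β-like, α-like and δ-like sums of the 4 libraries was most like that of a member were found by Pearson's r of log2(CPM + 1) over these 12 sums, which share libraries and depth. For Sod2 they were Stom (r = 0.970), Marcks, Zfp598, Cebpd and Mocs2, and for Gpx1 they were led by Casp8 (0.966). Gpx3 was matched by Gata6 (0.989), Cd81, Sgce, Cst3 and Calb1. Prdx1 was led by Olfm1 (0.982), Txn1 by Rhoc (0.982), Txnrd1 by Arl14ep (0.931), Cat by Rell1 (0.944), Hmox1 by Pgk1 (0.929) and Txnip by Ttc1 (0.966). Among the members themselves the highest r was between Gpx3 and Txnip (0.944), and that of Sod2 and Gpx1 was 0.774. Sod1 varied by less than 2-fold over the 12 sums and was not matched.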

How the data were processed

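Per the labels and the study's methods, the authors sequenced 1 droplet library per condition, aligned the reads to mouse build mm10 with Cell Ranger, and deposited UMI counts per gene and barcode with no normalization. The matrix headers name software version 3.0.0. The labels and the methods differ on the version of the capture kit, which was left unsettled. All values here were computed from these counts with scipy 1.17.1, pandas 2.3.3 and numpy 2.4.6 (Python 3.11.15), and drawn with matplotlib 3.10.9.

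Total counts were 50731370 UMIs for the untreated library, 20056630 for IL-1β, 31209339 for IFN-γ and 25716645 for both. Cells were kept by the limits given above, taken from the study's methods. β-like cells had at least 5% of UMIs from insulin as the leading hormone, and other endocrine types at least 2% from their own with less than 3% from insulin, and a second hormone stayed under 2% (Ppy under 5% in α- and δ-like cells). Other types had less than 2% of UMIs from each of insulin, Gcg, Sst and Ppy (Iapp and Pyy, which are among the 7 hormone genes left out of totals, were not used here), at least 3 detected markers of the type and more than of any other. These limits were set after seeing the data. Scrublet (in scanpy 1.11.5) called 75 cells (1.00%) doublets, which were kept. Counts were summed per type and library. Genes were named as the 10 members, as list genes past 2-fold, or as the 5 most similar in pattern, and Hspa1a and Nos2 set the 2 divisions of cells. The members and lists were chosen with earlier results of these data known. A count of 0 was given an upper limit of 3 UMIs. Scripts were tested on simulated data.

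Coordinates are GENCODE M21 on GRCm38, in which 30934 of the 31053 genes were matched. Sod1 (Scaf4), Txnip (Gm15441) and Txnrd1 (Gm38560 and Gm47073) overlap genes on the opposite strand, and Txnrd1 overlaps Eid3 on the same strand. Txn1 and Prdx1 have processed pseudogenes. Any effect of these on the counts was not tested. Alternatives were other cell filters, scales, thinning to 4000 UMIs and fold limits.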

Additional observations from a re-analysis of the deposited data

Results flagged for a closer look

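Hmox1 moved in opposite directions in a pair of cell types under the combination of cytokines. Its ratio to untreated was 2.25 in β-like cells, from 925 and 1637 UMIs, and 0.278 in macrophage-like cells, from 791 and 200 UMIs. There was 1 library per condition, and the difference between the types was not tested.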

How the results depend on the processing

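No ratio past 2-fold changed direction under the alternatives run. A ratio or share counted as moved when it left its 95% counting interval, and a count when it differed by over 1.5 times. By this measure, removing Scrublet doublets, leaving out barcodes shared between libraries, or doubling the hormone limits moved none of 249 values. The doubled limits, and likewise median-of-ratios factors, still put Gpx3 past 2-fold between both and IFN-γ in β-like cells (5 members in place of 4). Thinning moved 77 values of 289, median-of-ratios factors 46 of 241, leaving out hormone genes 39, no upper gene limit 35, per-cell means 29, leaving out cells high in Hspa1a 9 and the higher mitochondrial limit 1 of 249 each, and the 1.5-fold limit 4 of 5. The Sod2 ratio in β-like cells under IL-1β was 7.54 without hormone genes in the totals, 7.54 with median-of-ratios factors, 9.43 as a mean of per-cell levels and 10.9 without cells high in Hspa1a. Under IFN-γ it was 0.913 without hormone genes and 0.905 with median-of-ratios factors, below 1. Under both it was 9.09 with no upper gene limit, 8.09 without hormone genes, 8.77 with median-of-ratios factors and 8.80 as a per-cell mean. In α-like cells under both it was 5.36 after thinning. The count of members past 2-fold in β-like cells under IL-1β was 3 without hormone genes and 3 with median-of-ratios factors, and 8 past 1.5-fold. Under IFN-γ it was 1 with a mitochondrial limit of 20% (Cat) and 4 past 1.5-fold. Under both it was 2 without hormone genes, 4 with median-of-ratios factors and 8 past 1.5-fold, and between both and IL-1β 2 past 1.5-fold. Thinned shares of β-like cells with a Sod2 UMI were 32.9% untreated, 34.5% under IFN-γ and 90.4% under both. Depth limits Cat in every type and all members in acinar-like cells. No paired analysis was possible because each condition has 1 library. The cause of these shifts was not tested.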
